A study of Mus musculus with 9 samples.

Results

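The genes described here are 10 genes by which fat cells are recognised, measured in lung tissue of mice. The white fat genes were Adipoq, Retn, Cfd, Plin1, Cidec, Lep, Fabp4 and Lipe, and the brown fat genes were Ucp1 and Cidea. They were listed by name, with earlier results of these data known, and each was represented by its brightest probe, the probe with the highest mean normalized signal over all arrays. They are 10 of 19697 genes for which the arrays gave such a probe.

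The samples were 9 single-color microarrays of total lung RNA from male C57BL/6 mice labeled as 10 weeks old. The 4 control arrays and the 5 irradiated arrays differed, by their labels, only in that the left lung of the second group had received a single dose of radiation. The anaesthetics zoletil and rompun are described for all samples as given during irradiation, and no genetic change is named. Dose, lung region and time after irradiation are not in the labels of any array, so irradiated arrays may differ from each other in these. Irradiated tissue was, by the study's methods, a focal piece, the neighboring piece or a whole left lung, and control lungs came from non-irradiated mice. Dissection and age at sampling may therefore also differ between control and irradiated arrays. The study's methods describe RNA of triplicate experiments pooled before labeling, so an array stands for a pool and p-values measure the spread between pools. The arrays had 72.8% to 89.1% of their gene spots well above background, and their number limits the precision. All values are log2 normalized intensities unless a sentence says otherwise, where 1 unit is a doubling, and levels of different probes were not set against each other.

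White fat cells store triglyceride in 1 large droplet coated by perilipin, release fatty acids from it by lipolysis, and secrete hormones such as adiponectin and leptin into the blood. Brown fat cells hold many small droplets and dissipate the energy of fatty acids as heat through the uncoupling protein UCP1 of their mitochondria. Neither cell type is part of the alveolar wall, while fat depots of both types lie beside the airways, the heart and the great vessels in the mouse chest. In RNA from whole tissue, fewer fat cells and less RNA of these genes per fat cell cannot be told apart.

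The label of the tissue was checked first. All 8 markers of type II alveolar cells, which make surfactant, were well above background on all 9 arrays. Sftpc, the surfactant protein of these cells, lay at 19.36 or 19.43 on each. Quantile normalization gives equal ranks equal values on all arrays, so this narrow range does not measure how even the lung content was. Of the 10 fat genes, 8 were well above background on every array. Ucp1 was so on 8 arrays and Lep on 6. Arrays stood apart in other tissues: the mean of 8 cardiac muscle genes differed from the control mean by −5.02 on irradiated array 1, and that of 10 skeletal muscle genes by 4.05 on control array 3. By the position and tilt of the spot grid on the scanner image, 8 arrays formed scan pairs of 1 control and 1 irradiated array each: control 1 with irradiated 2, control 2 with irradiated 3, control 3 with irradiated 4, and control 4 with irradiated 5. Irradiated array 1 had no partner, and the labels name no batch.

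Shown here are the 250 bases before an annotated RefSeq transcript start (GRCm38.p6) of 5 white fat genes and of Ucp1. The 5, grouped after their values were seen, ran together across arrays (below), and Ucp1 did not follow them on every array. Fabp4, which also ran with them, had no such window. The sequences are given so that what the promoters share can be read beside the values. Capitals mark matches, on either strand, to TTGCNNAA, a site letter pattern of C/EBP factors, to CCAAT, and to AGGTCA, the unit repeated in nuclear receptor sites.
Adipoq, chr16:23146286-23146535, plus strand: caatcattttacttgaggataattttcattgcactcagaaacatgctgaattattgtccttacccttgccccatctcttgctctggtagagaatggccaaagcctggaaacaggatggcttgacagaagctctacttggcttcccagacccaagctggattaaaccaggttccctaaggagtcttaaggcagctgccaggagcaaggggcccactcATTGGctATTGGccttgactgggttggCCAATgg
Plin1, chr7:79732777-79733026, minus strand: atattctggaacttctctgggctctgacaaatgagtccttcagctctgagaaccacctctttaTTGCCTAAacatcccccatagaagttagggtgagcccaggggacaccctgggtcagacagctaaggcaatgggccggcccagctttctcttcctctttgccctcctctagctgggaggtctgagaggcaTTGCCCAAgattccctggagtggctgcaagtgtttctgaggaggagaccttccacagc
Cidec, chr6:113434765-113435014, minus strand: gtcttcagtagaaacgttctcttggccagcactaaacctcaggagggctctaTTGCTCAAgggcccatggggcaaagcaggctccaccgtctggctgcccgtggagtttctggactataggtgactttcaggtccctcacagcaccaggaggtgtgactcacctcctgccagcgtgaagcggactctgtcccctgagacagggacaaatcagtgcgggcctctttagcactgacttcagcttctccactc
Retn, chr8:3655520-3655769, plus strand: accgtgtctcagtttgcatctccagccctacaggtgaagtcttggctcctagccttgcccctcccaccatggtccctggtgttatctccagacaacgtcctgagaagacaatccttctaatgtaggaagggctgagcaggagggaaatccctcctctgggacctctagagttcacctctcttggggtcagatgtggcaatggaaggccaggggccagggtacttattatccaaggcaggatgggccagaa
Cfd, chr10:79890603-79890852, plus strand: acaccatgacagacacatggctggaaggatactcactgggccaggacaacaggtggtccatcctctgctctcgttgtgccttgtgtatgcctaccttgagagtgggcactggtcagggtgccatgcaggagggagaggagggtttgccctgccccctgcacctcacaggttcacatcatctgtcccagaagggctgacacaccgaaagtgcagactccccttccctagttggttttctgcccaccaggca
Ucp1, chr8:83290098-83290347, plus strand: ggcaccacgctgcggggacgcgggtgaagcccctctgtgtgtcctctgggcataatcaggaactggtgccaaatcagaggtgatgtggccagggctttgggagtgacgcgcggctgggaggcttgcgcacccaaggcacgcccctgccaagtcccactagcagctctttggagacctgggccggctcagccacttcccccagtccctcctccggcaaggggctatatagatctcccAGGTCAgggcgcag

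Of the 10 genes, 8 had such a window in the RefSeq table, with 10 windows in all because Cidec and Lipe each had a second. TTGCNNAA was found in windows of Plin1, Cidec and Lep, against 9.56% of all 32851 windows of the same length. Plin1 held it at 187 to 180 and again at 58 to 51 bases before the start. CCAAT was found in the window of Adipoq alone, with 3 copies within the last 34 bases, against 33.8% of all windows. AGGTCA was found in the window of Ucp1 alone, against 14.0% of all windows, and the direct repeat of these letters with any 1 base between, the pattern of PPAR sites, was in none of the 10 and in 0.0335% of all windows. TATAAA was in none of the 10 and in 12.4% of all windows. No letters of these patterns were shared by all 5 white fat genes shown, and Retn and Cfd held no match to any of them. A match is a description of letters, not of a bound site.

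**Figure D1:**
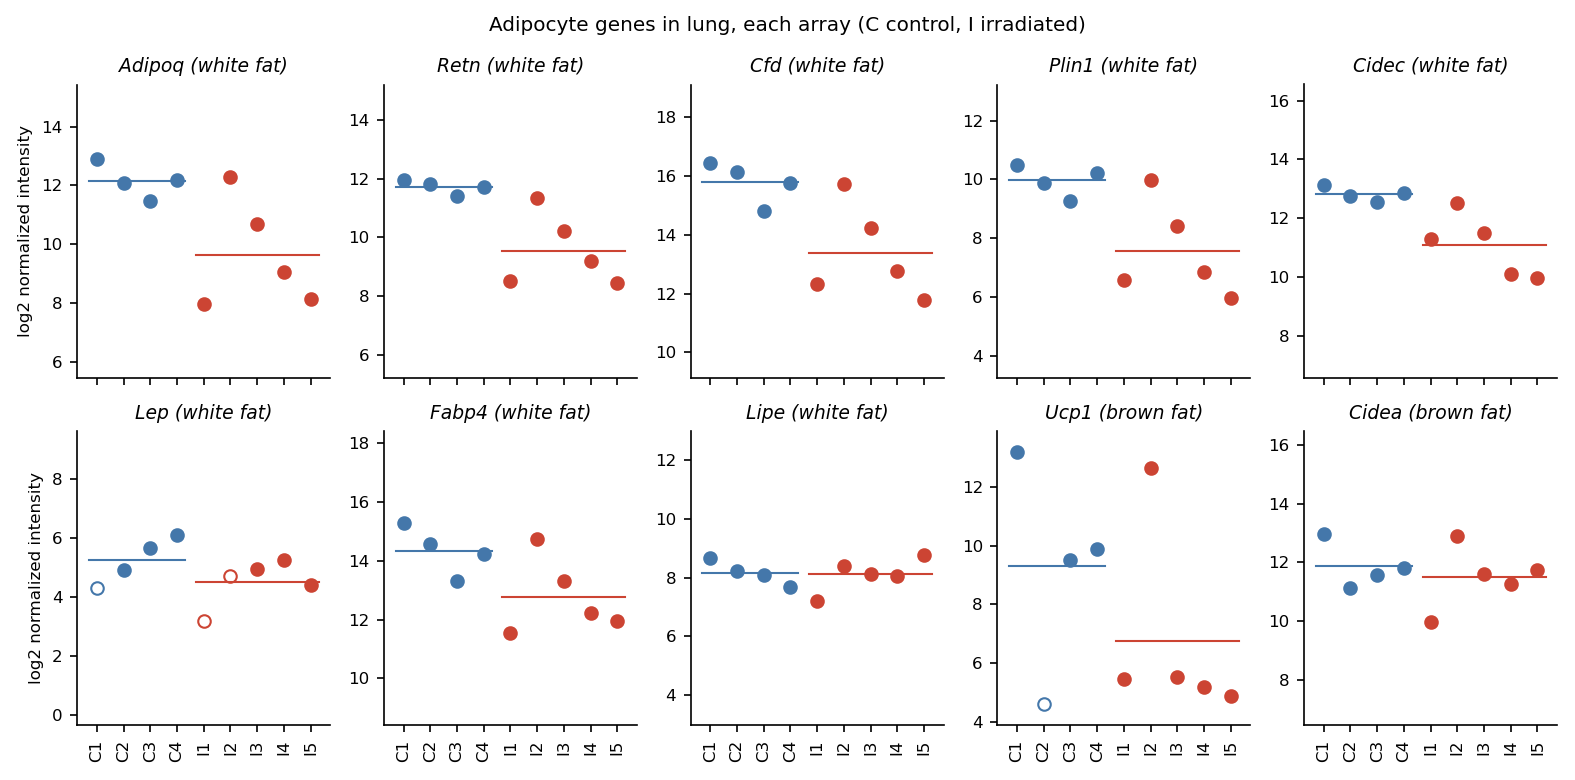
Log2 normalized intensity of each of the 10 genes (vertical axes, each spanning 10 units) on each array (C, control; I, irradiated; horizontal axis), with open points not well above background and lines at group means. Adipoq, Retn, Cfd, Plin1, Cidec and Fabp4 share a pattern in which irradiated array 2 lies near the controls and irradiated arrays 1, 4 and 5 lie below them.

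Of the 4 hormones and secreted proteins of white fat, Adipoq, Retn and Cfd had lower values on at least 4 of the 5 irradiated arrays than on any control array, and Lep did not. Adipoq, which encodes the hormone adiponectin, measured 12.90, 12.07, 11.48 and 12.19 on control arrays 1 to 4. It measured 7.96, 12.29, 10.70, 9.04 and 8.13 on irradiated arrays 1 to 5. Irradiated array 2 lay within the control values, the other 4 lay below the lowest control, and the groups overlapped. The mean was 12.16 ± 0.58 (SD, n = 4) in controls and 9.63 ± 1.85 (SD, n = 5) in irradiated lung, a difference of −2.53 (SE 0.82, 95% interval −4.35 to −0.71) or 5.78-fold, with an adjusted p of 0.288 by limma over all probes. The exact permutation test of this gene alone, two-sided and unadjusted, gave p = 0.0635, and the smallest p that this design allows is 0.0159.

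Retn encodes resistin, a hormone secreted by mouse fat cells. Its control values were 11.95, 11.80, 11.41 and 11.70. Its irradiated values were 8.50, 11.33, 10.23, 9.20 and 8.44, all below the lowest control, with irradiated array 2 only just so. The difference was −2.17 (SE 0.54), or 4.52-fold, with a limma adjusted p of 0.155 and an exact permutation p of 0.0159, the smallest possible.

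Cfd encodes adipsin, a complement protease made by fat cells. It measured 16.44, 16.15, 14.82 and 15.76 on the control arrays. On the irradiated arrays it measured 12.32, 15.73, 14.25, 12.78 and 11.79. Control array 3 was the lowest control, irradiated array 2 lay within the controls, and the other 4 irradiated arrays lay below all of them. The difference was −2.42 (SE 0.73), or 5.35-fold, with a limma adjusted p of 0.250 and an exact permutation p of 0.0317.

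Lep, which encodes leptin, was near the limit of measurement: it was not well above background on control array 1 and on irradiated arrays 1 and 2. Its control values were 4.32, 4.91, 5.68 and 6.10, and its irradiated values were 3.19, 4.70, 4.96, 5.24 and 4.41. The groups overlapped. The difference was −0.75 (SE 0.47, 95% interval −1.81 to 0.31), with a limma adjusted p of 0.691. It was −0.42 without irradiated array 1, −0.47 without control array 4 and −0.21 with normexp background correction.

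Both proteins of the fat droplet surface followed the pattern of adiponectin. Plin1, the perilipin that coats the large droplet, measured 10.49, 9.87, 9.26 and 10.24 in controls and 6.59, 9.97, 8.42, 6.84 and 5.97 on the irradiated arrays. Irradiated array 2 was again within the controls, and irradiated array 5 was the lowest. The difference was −2.41 (SE 0.72), or 5.30-fold, with a limma adjusted p of 0.249 and an exact permutation p of 0.0476.

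Cidec, whose protein fuses droplets into larger ones, measured 13.12, 12.75, 12.56 and 12.86 on the control arrays. Its irradiated values of 11.28, 12.53, 11.50, 10.08 and 9.98 all lay below the lowest control, irradiated array 2 by the least. The difference was −1.75 (SE 0.46), or 3.36-fold, with a limma adjusted p of 0.187 and an exact permutation p of 0.0159. A second, dimmer probe of Cidec gave a difference of −1.32 with a limma adjusted p of 0.497. On that probe the groups overlapped, with irradiated array 2 at 9.26 against 8.19 to 9.75 in controls.

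Of the genes of fatty acid handling, Fabp4 ran with Adipoq across arrays (r = 0.972) and Lipe did not (r = 0.272). Fabp4, a carrier of fatty acids that is abundant in fat cells and also made by capillary endothelium, measured 15.28, 14.59, 13.31 and 14.23 in controls and 11.54, 14.76, 13.31, 12.23 and 11.94 in irradiated lung. Only irradiated arrays 1, 4 and 5 lay below the lowest control. The difference was −1.59 (SE 0.63), or 3.02-fold, with a limma adjusted p of 0.409 and an exact permutation p of 0.111. Of 8 endothelial genes, all well above background on every array, 5 were lower and 3 higher, with a median difference of −0.20, and none passed the test. Tek, an endothelial receptor, differed by −0.71 and Emcn, a surface protein of these cells, by 0.36, or 0.15 without control array 2. The mean of the 8 lay between −0.09 and 0.15 from the control mean in controls and between −0.31 and 0.16 on irradiated arrays, and its part in the values of Fabp4 was not tested.

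Lipe, the hormone-sensitive lipase that releases fatty acids from the droplet, did not share the pattern. It measured 8.67, 8.21, 8.10 and 7.67 in controls and 7.20, 8.39, 8.13, 8.07 and 8.77 on the irradiated arrays. Irradiated array 5, the lowest for Plin1, Cfd, Retn and Cidec, was the highest for Lipe. The difference was −0.05 (95% interval −0.74 to 0.64), with a limma adjusted p of 0.993 and an exact permutation p of 0.905. Its sign turned under 7 of 21 other settings.

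The brown fat genes varied by array more than by group. Ucp1, the uncoupling protein that defines brown fat, measured 13.18, 4.61, 9.53 and 9.87 on the control arrays. On the irradiated arrays it measured 5.48, 12.65, 5.53, 5.19 and 4.87. It was high on control array 1 and irradiated array 2, intermediate on control arrays 3 and 4, and low on the other 5, of which control array 2 was not well above background. Control array 1 was at least 381-fold above control array 2, within a group. The difference between the groups was −2.55 (SE 1.92, 95% interval −6.83 to 1.73), with a limma adjusted p of 0.760 and an exact permutation p of 0.302. It was −4.12 without control array 2, −4.03 without irradiated array 2 and −1.26 without control array 1.

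Cidea, a droplet protein of brown fat, was measured well above background on all arrays and spanned less. Its control values were 12.97, 11.12, 11.57 and 11.80, and its irradiated values were 9.96, 12.89, 11.60, 11.25 and 11.76. Control array 1 and irradiated array 2 were again the highest, control array 2 the lowest control and irradiated array 1 the lowest of all. The difference was −0.37 (SE 0.54, 95% interval −1.57 to 0.83), with a limma adjusted p of 0.906. It was 0.01 without irradiated array 1 and 0.00 without control array 1, and it was −0.62 without control array 2 and −0.72 without irradiated array 2.

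**Figure D2:**
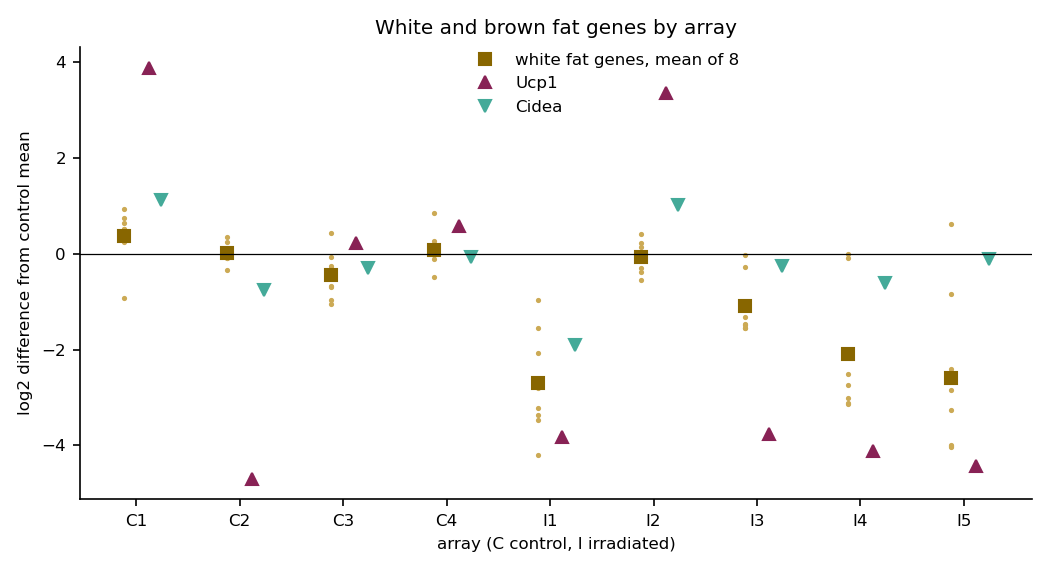
Log2 difference of each gene from its own control mean (vertical axis) on each array (C, control; I, irradiated): squares, mean of the 8 white fat genes, with the single genes as small dots; triangles, Ucp1 and Cidea. Control arrays 2 and 1 are close in white fat genes (0.02 and 0.37) and lie at opposite ends for Ucp1, while irradiated arrays 1, 3, 4 and 5 are low in both.

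White and brown fat genes were set side by side as differences from each gene's own control mean. The mean of the white genes was 0.37, 0.02, −0.45 and 0.07 on control arrays 1 to 4. It was −2.70, −0.06, −1.09, −2.09 and −2.60 on irradiated arrays 1 to 5. The mean of the brown genes was 2.50, −2.72, −0.03 and 0.26 in controls and −2.86, 2.19, −2.01, −2.36 and −2.26 on the irradiated arrays. The value of control array 2 rests on Ucp1, which was not well above background there, while Cidea alone was at −0.75. On irradiated arrays 3, 4 and 5 Ucp1 was likewise far lower, at −3.77, −4.11 and −4.42, with Cidea at −0.26, −0.61 and −0.10. Between control arrays 1 and 2, Ucp1 parted from the other fat genes: Adipoq differed by 0.83 and Retn by 0.16, while Ucp1 differed by at least 8.57. Cidea, the other brown fat gene, differed by 1.86 between these arrays. Both arrays with the highest Ucp1, control 1 and irradiated 2, belong to the same scan pair, and the part of this in the values was not tested.

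Most white fat genes varied together across arrays. Among Adipoq, Retn, Cfd, Plin1 and Cidec, Pearson's r over the 9 arrays lay between 0.903 and 0.992 for all 10 pairs. These 5 were grouped after their values were seen, so the range is in part a product of that choice. Fabp4, outside the group, had an r of 0.972 with Adipoq, above the 0.903 of Cidec with Adipoq. With these 5, Fabp4 had an r of 0.857 to 0.972, Ucp1 of 0.660 to 0.718, Cidea of 0.413 to 0.673, Lep of 0.268 to 0.525 and Lipe of −0.03 to 0.272. Ucp1 and Cidea had an r of 0.783 with each other. These are descriptions over arrays that share a normalization and 2 groups, and no p is given.

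None of the 10 genes passed an adjusted p of 0.05 in limma, against 131 of 39302 probes (0.333%). All 10 differences were below 0, 6 of the 10 had an unadjusted p under 0.05 (9.94% of all probes had one), and the median difference of the 10 was −1.96, against 0.00 over all probes. By brightest probe, Retn and Cidec were the 2 genes of 10 whose irradiated values all lay below the controls. This pattern was shown by 1.65% of the 39214 probes with a value on every array, and not by the second probe of Cidec. In the normalized table that the authors deposited, neither Retn nor Cidec kept this separation.

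**Figure D3:**
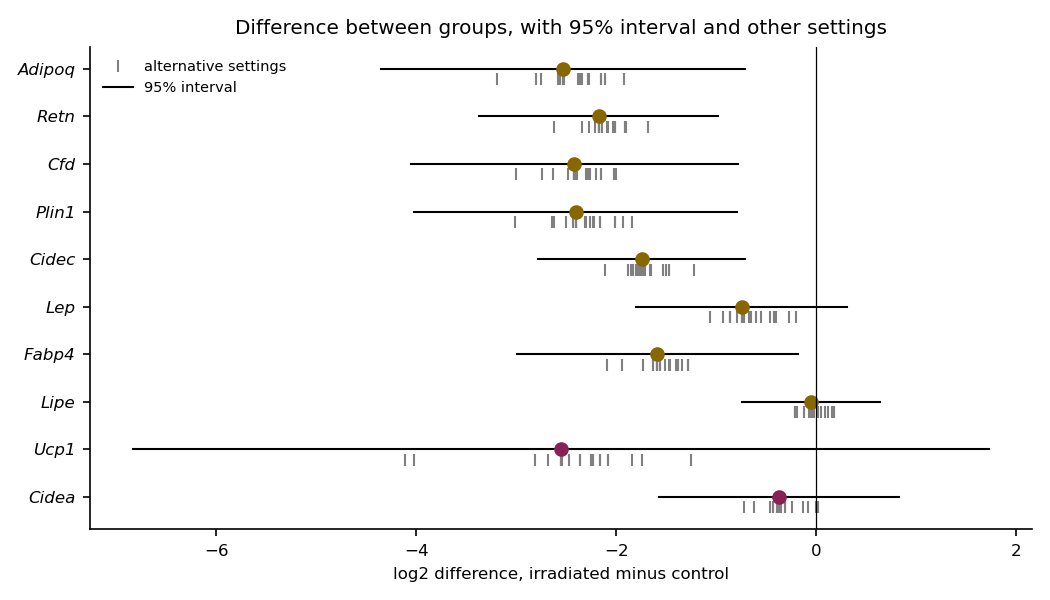
Log2 difference, irradiated minus control (horizontal axis), of each gene as a point with its 95% interval from limma as a line, and the same difference under 21 other settings as ticks. Intervals of Adipoq, Retn, Cfd, Plin1, Cidec and Fabp4 lie below 0 before adjustment for the number of probes, and that of Ucp1 runs from −6.83 to 1.73.

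The spread within the irradiated group was larger than within the controls for the white fat genes. For Adipoq the irradiated arrays spanned 4.33 and the controls 1.42, and for Retn 2.88 and 0.55. Irradiated array 2 set the upper end in Adipoq, Retn, Cfd, Plin1, Cidec and Fabp4. Without it, the differences were −3.20 for Adipoq, −2.62 for Retn, −3.01 for Cfd, −3.01 for Plin1, −2.11 for Cidec and −2.09 for Fabp4, with limma adjusted p-values of 0.0716 to 0.158. Without control array 3 and irradiated array 1, which stood apart in muscle genes, none of the 10 passed and Adipoq differed by −2.34 and Retn by −2.02.

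Within the scan pairs, all 6 of these genes were lower on the irradiated array in 4 of 4 pairs. The share of all probes lower in 4 of 4 pairs was not counted, so this has no background beside it. Adipoq differed by −0.61 between control 1 and irradiated 2, by −1.37 between control 2 and irradiated 3, by −2.43 between control 3 and irradiated 4, and by −4.06 between control 4 and irradiated 5. Cfd differed by −0.71, −1.90, −2.04 and −3.98 in the same order. For these 6 genes, named after their values were seen, the pairs differed in size and not in sign. In the same order, Lep differed by 0.39, 0.05, −0.43 and −1.69, with values not well above background in the first, Lipe by −0.28, −0.09, −0.03 and 1.10, and Cidea by −0.08, 0.49, −0.32 and −0.04. Ucp1 differed by −0.53, by at least 0.925 (it was not well above background on control array 2), by −4.34 and by −5.00. With scan pair taken as a random block, a setting chosen after seeing the data, 5 of the 10 genes passed, all lower: Retn (adjusted p 0.0157), Cidec (0.0158), Cfd (0.0266), Plin1 (0.0347) and Adipoq (0.0417). In that fit 3.28% of all probes passed as lower. With the pairs as a fixed block, which leaves irradiated array 1 without weight, none passed, against 2.81% of all probes in either direction, and Fabp4 had the lowest adjusted p of the 10 (0.083).

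The genes whose profile was most like the mean of the 8 white fat genes were sought among 486 other genes with an SD of at least 1 over the 9 arrays that were well above background on at least 4 arrays. The median r of these genes with the profile was 0.111. Of the 10 named here, 5 were well above background on all 9 arrays, and Acvr1c, Vat1l, Tmem45b, Ebf2 and Klb were so on 6 to 8. The closest was Car3 (r = 0.998), a carbonic anhydrase abundant in fat and muscle, which measured 14.94, 14.38, 13.73 and 14.38 in controls and 10.16, 14.38, 12.45, 10.97 and 10.03 on the irradiated arrays. Irradiated arrays 1 and 5 were its lowest, as for Adipoq. Next were Acvr1c, an activin receptor of fat cells (r = 0.987), Vat1l (0.953), Tmem45b (0.951) and Pck1, the enzyme that feeds glycerol synthesis in fat (0.951). Plin4, another droplet coat protein (0.950), Ebf2, a transcription factor of fat precursors (0.947), Klb, the co-receptor of FGF21 (0.944), Cyp4a12b (0.918) and Thrsp, a protein of lipid synthesis (0.917), completed the 10. Without the 2 arrays farthest from the median of the profile, irradiated arrays 1 and 5, r lay between 0.845 for Cyp4a12b and 0.998 for Car3. Cyp4a12b had all 5 irradiated arrays below the lowest control, and its level on irradiated array 2 was 7.39 against 8.11 to 9.43 on the control arrays.

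**Figure D4:**
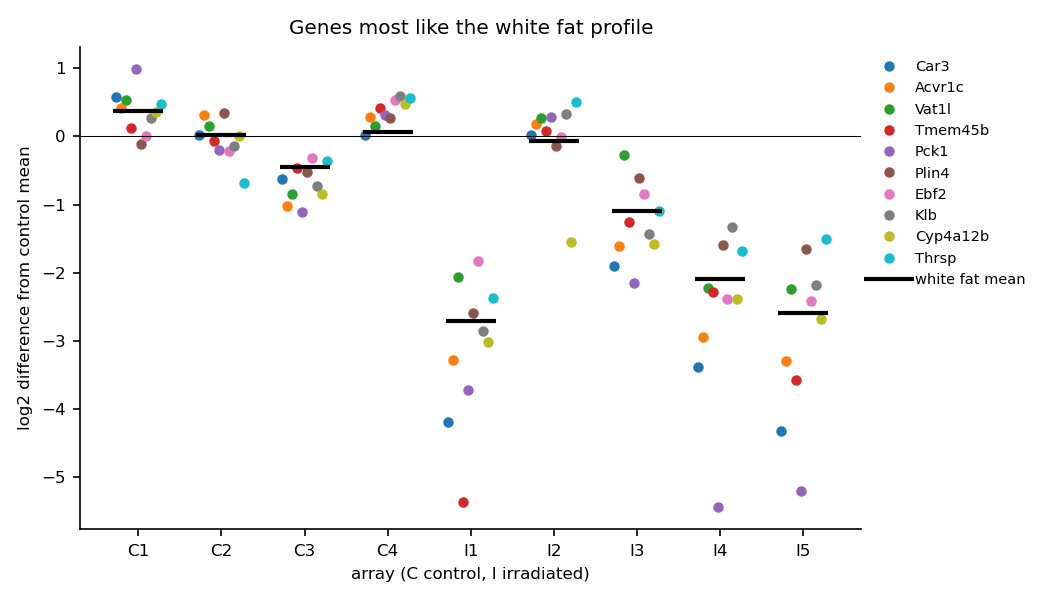
Log2 difference from the control mean (vertical axis) of the 10 genes most like the white fat profile, as points, on each array (C, control; I, irradiated), with the mean of the 8 white fat genes as bars. On irradiated array 2, Cyp4a12b stays low while the other 9 lie near 0.

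By the same rule the 5 genes most like the mean of Ucp1 and Cidea were Gys2, the liver form of glycogen synthase (r = 0.916), Magee2 (0.898), Thrsp (0.873), Psg26 (0.812) and the chemokine Ccl24 (0.805). Gys2 measured 7.80, 4.49, 5.08 and 6.17 in controls and 2.27, 7.66, 4.54, 2.54 and 2.05 on the irradiated arrays, with control array 1 and irradiated array 2 the highest. It was not well above background on irradiated arrays 1, 3, 4 and 5. Magee2 was well above background on 5 arrays and Psg26 on 4, so the order of their low values is not measured. Without control array 1 and irradiated array 2, the 2 arrays farthest from the median of this profile, r was 0.771 for Gys2, 0.637 for Magee2, 0.833 for Thrsp, 0.795 for Ccl24 and −0.03 for Psg26.

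Other genes of fat cells were taken from 7 lists by role, 100 genes in all, each found on the arrays. None passed limma's threshold in either direction (0.333% of all probes did), 25 had an unadjusted p under 0.05 (9.94% of all probes), 60 of the 100 differences were below 0, and the median was −0.09. Of each list the 2 lowest differences and up to 2 of the highest above 0 are given.

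Among 14 genes of the lipid droplet and of lipolysis, 8 were lower and 6 higher, with a median of −0.05. Plin4 differed by −1.32 and Fitm1, which helps to bud droplets from the endoplasmic reticulum, by −0.85, or −0.41 without irradiated array 1. Plin2, the droplet coat of cells other than fat cells, differed by 0.55, and Cideb by 0.38. Plin2 thus lay on the other side of 0 from Plin1 and Plin4, with 13.73 to 14.01 in controls and 14.03 to 14.76 on the irradiated arrays.

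Among 18 genes of lipid synthesis, 11 were lower and 7 higher, with a median of −0.11. Pck1 differed most of all 100 genes, by −3.25 (SE 1.06, adjusted p 0.296). It measured 12.24, 11.06, 10.14 and 11.56 in controls and 7.52, 11.54, 9.09, 5.80 and 6.05 on the irradiated arrays, in which irradiated array 2 again lay within the controls. Thrsp differed by −1.23. Scd1, the desaturase that makes monounsaturated fatty acids, differed by 0.71, and Fasn, the fatty acid synthase, by 0.36.

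Among 12 transcription factors of fat cell formation, 7 were lower and 5 higher, with a median of −0.09. Ebf2 differed by −1.497 and Mlxipl, the glucose-responsive factor ChREBP, by −0.91 (adjusted p 0.0818). Mlxipl was below the lowest control on all 5 irradiated arrays, at 9.16 to 9.95 against 9.97 to 10.57. Cebpd differed by 0.64 and Zfp423 by 0.60. Pparg, the master regulator of fat cell formation, named here after its value was seen, differed by −0.10, or −0.06 without control array 3.

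Among 13 genes of nutrient uptake and hormone receptors, 12 were lower and 1 higher, with a median of −0.22. Slc2a4, the insulin-responsive glucose transporter GLUT4 of fat and muscle, differed by −0.91 (−0.53 without irradiated array 1, which was low in cardiac genes), and Cd36, a fatty acid transporter also made by lung capillaries, by −0.47. The single higher gene was the adenosine receptor Adora1, by 0.10, and the value was 0.001 without control array 3, 0.17 without control array 2 and 0.15 without control array 4.

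Among 12 secreted proteins, 6 were lower and 6 higher, with a median of 0.02. Orm1, an acute-phase protein, differed by 1.95, with 6.49 to 7.13 in controls and 6.49, 8.87, 9.38, 9.51 and 8.94 on the irradiated arrays, so that irradiated array 1 alone lay with the controls. Itln1 differed by 1.26, or 2.08 without irradiated array 1. Nrg4, a growth factor of brown fat, differed by −0.78 and Rbp4, the carrier of retinol, by −0.54.

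Among 21 brown and beige fat genes other than Ucp1 and Cidea, 12 were lower and 9 higher, with a median of −0.09. The mean of this list by array had an r of 0.881 with the white fat profile over the 9 arrays, a description. The other lists of fat genes had an r of −0.099 to 0.865. Lhx8 differed by −1.81 and was well above background on 3 arrays. Cox8b, a subunit of the respiratory chain in brown fat and muscle, differed by −0.94, or −0.52 without irradiated array 1. S100b differed by 1.26 and Cited1 by 1.05, the latter with no value on irradiated array 4 and at 0.52 without irradiated array 5. Elovl3, an elongase by which brown fat is often recognised, was not well above background on any array.

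Among 10 genes described as enriched in white over brown fat, 4 were lower and 6 higher, with a median of 0.17. Car3 differed by −2.76 and Nnat by −0.24, with values from −0.41 without control array 3 to −0.03 without control array 4. Those without irradiated arrays 2 and 4 were −0.37 and −0.10. Sncg differed by 1.45 and Wfdc21 by 1.09. The members of this list did not share a pattern: Car3 had an r of 0.998 with the white fat profile, Sncg of −0.52 and Wfdc21 of −0.58.

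**Figure D5:**
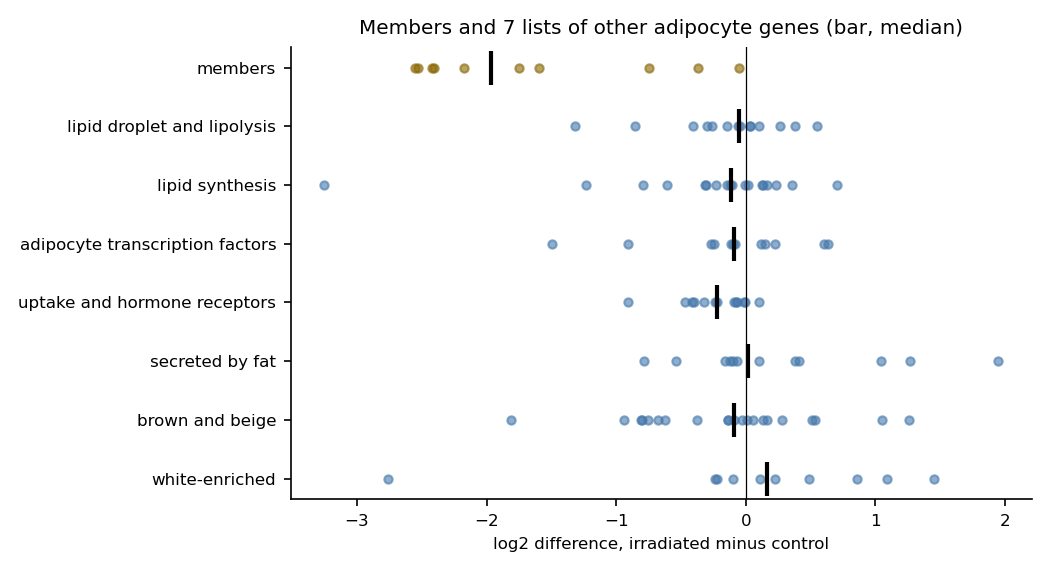
Log2 difference, irradiated minus control (horizontal axis), of the 10 fat genes in the top row and of the genes of 7 lists below it, each point a gene and each bar a median. The median is −1.96 for the 10 genes and lies between −0.22 and 0.17 for the lists.

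Markers of other cell types were set beside the white fat profile, as means over each list of differences from the control mean. The 8 type II alveolar genes lay between −0.13 and 0.11 in controls and between −0.23 and 0.18 on the irradiated arrays, and 7 fibroblast genes between −0.20 and 0.19 and between −0.13 and 0.39. Of 8 listed macrophage genes, 7 were found and lay between −0.19 and 0.46 and between −0.12 and 0.26. Of the marker lists, the 6 genes of peripheral nerve had the profile nearest to that of the white fat genes (r = 0.863 over the 9 arrays, a description), from −0.28 to 0.17 in controls and at −0.85, −0.41, −0.01, −0.89 and −1.23 on irradiated arrays 1 to 5. Dbh, which makes noradrenaline in sympathetic nerves, differed by −1.32 and was well above background on 6 arrays. Nefl, a neurofilament and the lowest of the list at −1.72, was so on 2 arrays, and without Nefl and Dbh, chosen after their values were seen, r was 0.743. Prx, a myelin protein well above background on all 9 arrays, differed by 0.35, or 0.20 without irradiated array 2, and had an r of 0.042 with the white fat profile. Of the 6 nerve genes, 5 were lower and 1 higher, and none passed the test. The 8 cardiac genes lay between −0.60 and 0.55 in controls and between −0.46 and 0.41 on irradiated arrays 2 to 5. Without irradiated array 1 Adipoq differed by −2.12 and Retn by −1.91. The 10 skeletal muscle genes lay between −1.96 and −0.91 on irradiated arrays and between −1.70 and −1.05 on controls 1, 2 and 4. The 6 mesothelial genes lay between −0.65 and 0.86 in controls and between −0.61 and 0.63 on irradiated arrays, 7 thymus genes between −0.26 and 0.34 and between −0.17 and 0.34, and 6 cartilage genes between −1.27 and 2.21 and between −0.40 and 0.17. Of 4 haemoglobin and red cell genes, 3 were found, at −0.78 to 0.43 in controls and at 0.20, 0.09, 0.23, −1.12 and −1.01 on irradiated arrays 1 to 5. The part of these tissues in the fat gene values was not tested.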

How the data were processed

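Total RNA of mouse lung was labeled and hybridized to single-color Agilent arrays. The authors deposited intensity values from the Feature Extraction software, with background-corrected signals and no normalization between arrays, and a table of quantile normalized intensity values whose common scale is not stated. The intensity analysis here used the processed signal without control and outlier spots. Probes over 1.4 times local background on at least 4 of 9 arrays were kept (39302 of 39429), log2 transformed and quantile normalized, and spots of a probe were averaged. Accessions were matched to a RefSeq gene table (GRCm38.p6), which named 26055 probes. Groups were compared with limma 3.58.1 in R 4.3.3 (intensity trend, no covariates, Benjamini-Hochberg over all probes, adjusted p under 0.05). Exact two-sided permutation tests used scipy 1.17.1, with p as doubled one-sided share over 126 assignments. The fit was tested on simulated data, of which no result is given here.

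Genes named were the 10 members, per list the 2 highest and 2 lowest differences and any called gene. The 10 and 5 most alike in profile and at most 2 genes per marker list were also named. Nefl of the nerve list and Pparg were added after their values were seen, and Elovl3 was added as well. The members and lists were chosen with earlier results of these data known. The labels tie no array to named animals and the methods describe pooled RNA, so p-values measure the spread between these pooled arrays, part of which may be technical. The alternatives were normexp (offset 50), scaling to the 75th percentile, the background filter on all or no arrays, the authors' table, no variance trend, array weights, each array left out, replicate and scan pair blocks, an adjusted p under 0.01, the mean of all probes, and the white list without Fabp4 and Cfd.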

Additional observations from a re-analysis of the deposited data

Results flagged for a closer look

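Outlying values within a group were sought by the gap of the highest or lowest array to its neighbour, relative to the range of the group, in 60 groups of 4 or 5 arrays. Chance gives about 5% and 8.33% were found. Ucp1 on irradiated array 2 was 12.65 against 4.87 to 5.53 on the other 4 irradiated arrays, and the mean of both brown fat genes there was 2.19 above the control mean against −2.86 to −2.01. The mean of the cardiac list was −5.02 on irradiated array 1 against −0.46 to 0.41 on the others. The mean of the skeletal muscle list was 4.05 on control array 3 against −1.70 to −1.05. The mean of the macrophage list was 0.46 on control array 1 against −0.19 to −0.09. No white fat gene stood out in this way in either group.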

How the results depend on the processing

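The count of the 10 genes past the threshold stayed at 0 except with scan pair as a random block, which gave 5. With the replicate number as a block it was 0 and 1 probe passed in all. The deviations of same-numbered arrays had correlations of −0.17 to 0.06, and those of the scan pairs had 0.20 to 0.46. Whether the replicate numbers pair the arrays is not in the labels and was not tested. The count of probes, 131, became 197 with the filter on all arrays, 44 in the authors' table and without a variance trend, 1105 with the scan pair block, 2896 with the random block and 5 at an adjusted p under 0.01, and it ran from 5 (without control array 3) to 476 (without irradiated array 1) with an array left out. The fits with an array left out had fewer arrays, and the cause of none of these shifts was tested. The count of genes without overlap, 2, became 0 in the authors' table. The sign of Lipe turned to 0.017 (normexp), 0.047 (array weights), 0.18 (scan pair block), 0.088 (random block) and 0.16 (without control array 3 and irradiated array 1), and with an array left out it ran from −0.22 to 0.18. That of Cidea turned to 0.013 with the scan pair block and ran from −0.72 to 0.013 with an array left out. The other 8 genes stayed below 0 in all 21 settings. The median difference of the 10 genes ran from −2.37 (without irradiated array 2) to −1.47 (without control array 1). It stayed within 1 SD of irradiated arrays (1.34), which is a wide margin. The number of arrays limits what can be called, and Lep and low Ucp1 values are limited by background.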
